A study of Mus musculus with 6 samples.

Results

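The replication-dependent histone genes are here the genes that the annotation names after the Hist1, Hist2, Hist3 and Hist4 clusters, wherever they lie. They were taken as every identifier of the deposited count table whose GENCODE M21 symbol starts with Hist1h, Hist2h, Hist3h or Hist4h. The rule found 70 genes of 55487 in the table, of which 67 are annotated as protein-coding, 2 as processed pseudogenes and 1 as an unprocessed pseudogene. They comprise 6 genes of linker histone H1, 20 of H2A, 19 of H2B, 12 of H3 and 13 of H4. Total RNA was sequenced from whole ovaries of 3 GalTKO samples, from mice lacking Galt, and 3 wildtype samples. All 6 samples carry the strain label cbl/6-ola/129, were collected at postnatal day 49, and came from animals given 2.5% galactose in the diet for 4 weeks. Nothing in the labels ties a sample to a single animal, and the p-values below therefore describe the spread over these libraries only, which may be technical.

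Replication-dependent histone genes supply most of the histone protein that packages newly copied DNA, and dividing cells switch them on in S phase, when DNA is replicated. H2A, H2B, H3 and H4 form the nucleosome core around which DNA winds, and H1 binds the linker DNA between nucleosomes. Their typical transcripts lack introns and a poly(A) tail and end after a short stem-loop that the stem-loop binding protein SLBP holds, so a library made from ribosomal RNA-depleted total RNA counts them while a poly(A)-selected library largely does not. In the ovary, granulosa cells of growing follicles are the main dividing population.

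The stem-loop sequences are shown because this 3' element sets typical genes of this kind apart from polyadenylated histone genes. In some genes the annotated transcript runs well past it, by 4884 bases in Hist1h1d and 2445 in Hist4h4. The annotated transcripts were searched for a stem of 6 perfectly paired bases around a loop of 4 bases. A match had to start with GG and end with CC, with a loop that starts with TTT, so the search fixed those letters. It was found in 44 of the 70 genes: 4 of 6 for H1, 11 of 20 for H2A, 10 of 19 for H2B, 8 of 12 for H3 and 11 of 13 for H4. Some annotated transcripts may stop before this element, so these fractions describe the annotated stretches only. In the sequences below, 5' to 3' in DNA letters from the GENCODE M21 transcripts on GRCm38, capitals mark the paired stem.
commonest form found in H1, H2A, H2B and H3 genes: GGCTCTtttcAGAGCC
commonest form found in H4 genes: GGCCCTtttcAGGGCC
Hist1h3f: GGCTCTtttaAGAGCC
Hist2h4: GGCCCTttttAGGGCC
Hist1h4j: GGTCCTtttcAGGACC
Hist2h2ac: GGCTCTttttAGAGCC
The first form was held by 26 genes (3 of H1, 10 of H2A, 8 of H2B, 5 of H3 and none of H4), and the second by 7 genes, all of H4. The Hist1h3f form was held by 6 genes, the Hist2h4 and Hist1h4j forms by 2 H4 genes each, and the Hist2h2ac form by 1. No stem-loop of this form lies in the annotated transcripts of Hist1h2bn, Hist1h2br, Hist2h2bb and Hist1h2al, which says only that these letters are not in the annotated stretch. Hist1h4m at chr13:21812129-21812144 (plus strand) and Hist1h4n at chr13:21831798-21831813 (minus strand) carry the same 16 bases.

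Counts per library totalled 25729564, 22910143 and 19232486 in GalTKO replicates 1 to 3 and 24861338, 23714522 and 23685626 in wildtype replicates 1 to 3. Galt, which checks the labels, had 4, 6 and 0 counts in GalTKO libraries, against 445, 380 and 402 in wildtype libraries, and edgeR gave a log2 fold change of -6.82 ± 0.41 (SE) at an adjusted p of 0.000153. The histone genes took 0.317% to 0.429% of counts in GalTKO libraries and 0.370% to 0.452% in wildtype libraries. The mitochondrial share, which depends on tissue and on RNA handling, was 2.22% to 3.53% in GalTKO libraries and 1.37% to 1.97% in wildtype libraries, and its part in the results below was not tested. In bulk tissue, fewer dividing cells and less histone RNA per cell cannot be told apart.

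Levels differed widely between the histone genes. Levels are given as CPM (counts scaled to library size, with TMM factors) divided by the annotated exon length in kilobases, as means over all 6 libraries. The class median was highest for H4, at 140 CPM per kb over 13 genes, against 116 for H1, 99.5 for H3, 44.9 for H2B and 19.7 for H2A. Hist1h4h, 1 of the genes that encode H4, led all classes with 420.6 CPM per kb, followed by Hist1h4k with 361. Hist1h2ak led H2A with 298 CPM per kb and Hist1h2bn led H2B with 205, and these 2 genes lie head to head on chromosome 13. Hist2h3b led H3 with 174 CPM per kb and Hist1h1b led H1 with 154. This order depends on the annotated exon length, which is 312 bases for Hist1h4k, 743 for Hist1h1b, 1138 for Hist1h4d and 1560 for Hist1h1c. In CPM not divided by length, Hist1h4d (318 in GalTKO and 331 in wildtype ovaries) lay above Hist1h4h (186 and 209). Hist1h1c (216 and 243 CPM) likewise lay above Hist1h1b (115 and 114 CPM). The order of genes and classes may also depend on how reads from sequence shared between genes were counted, which no source used here states. Of the 50-base stretches of a transcript, 0% occur in other genes for Hist1h1b and 100% for Hist2h2aa2. The part of shared sequence in this order was not tested. Hist1h1t, which encodes the testis-specific linker histone, had 0.854 CPM per kb, and the testis-type genes Hist1h2aa and Hist1h2ba, named here after their values were seen, had 4.85 and 3.50. Hist2h3c1, an H3 gene, was listed at 0 counts in all 6 libraries; it lies within the span of Gm20634 on the same strand, which does hold counts, so reads from there may have been assigned elsewhere or to neither gene.

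Genotype was compared for the 66 histone genes that passed the filter on low counts, by an edgeR quasi-likelihood test fitted to all 16957 genes that passed. A gene was called at a Benjamini-Hochberg adjusted p under 0.05 over all genes tested. Of the 66, 3 were called higher in GalTKO ovaries (4.55%, against 1.13% of all tested genes) and 2 were called lower (3.03%, against 1.43%), which makes 5 called either way (7.58%, against 2.55%). Hist1h2al, Hist1h2br and Hist2h2bb rose, and Hist1h2bn and Hist1h4m fell. The other 61 did not pass the test. Of all 66, 46 had a negative log2 fold change (69.7%, against 46.6% of all tested genes), and the median was -0.15, against 0.02 for all tested genes. The 3 GalTKO libraries lay below all 3 wildtype libraries for 13 histone genes (19.7%, against 12.0% of all tested genes) and above them for 5 (7.58%, against 11.8%), and overlapped for 48. At an unadjusted p under 0.05, 13 histone genes were lower (19.7%, against 8.9% of all tested genes) and 5 higher (7.58%, against 8.19%). DESeq2 called 9 histone genes lower, against 3.24% of the genes it tested, and 3 higher, against 2.17%. The 9 were Hist1h2bn and Hist1h4m with Hist1h2bc, Hist1h2bj, Hist1h2bk, Hist1h3a, Hist1h3d, Hist2h2ac and Hist2h2be, the last 7 of which had edgeR adjusted p-values above 0.05. Without a low-count filter edgeR also called 9 lower, against 1.64% of the genes tested then. An adjusted p under 0.1 called 4 lower, against 2.54% of all tested genes, and the fit without GalTKO replicate 2 called 7 lower, against 2.43%.

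**Figure D1:**
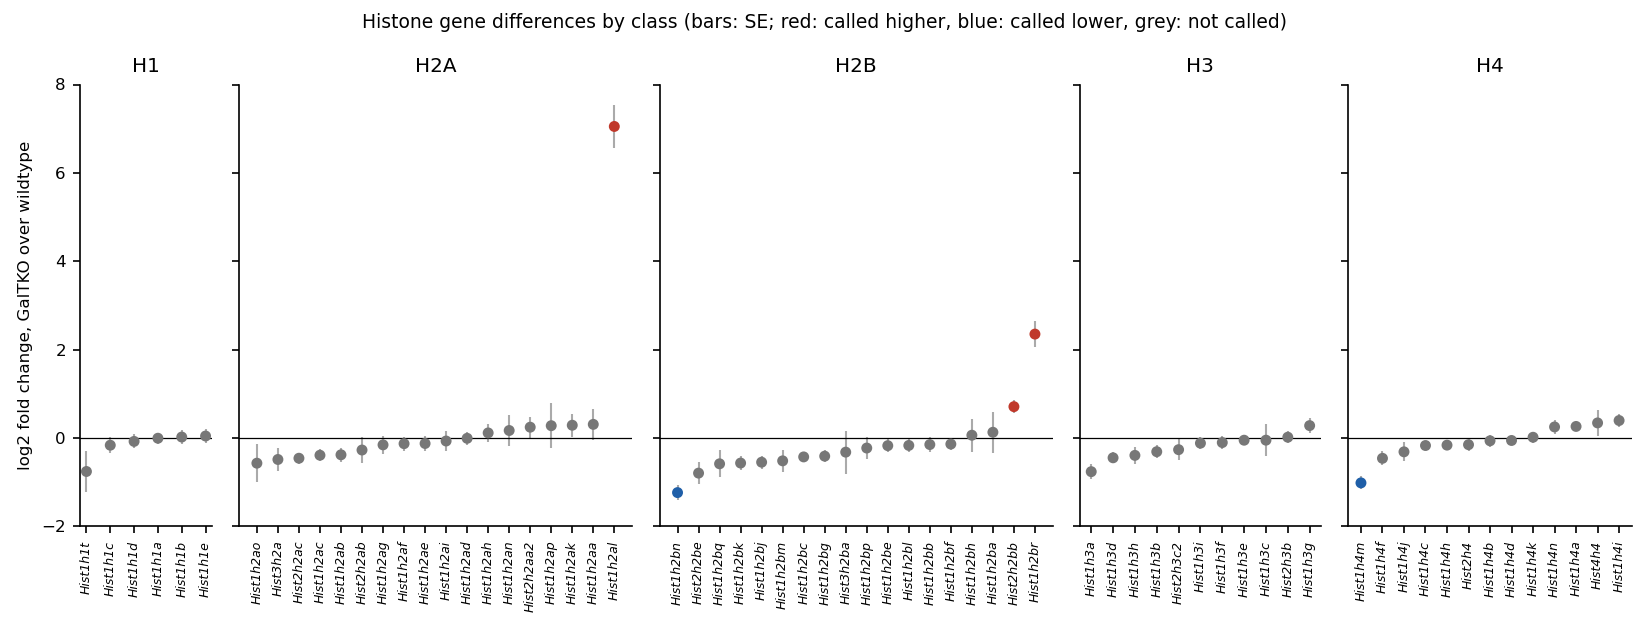
Log2 fold change of GalTKO over wildtype (vertical axis) for the 66 tested histone genes, 1 panel per class, sorted from low to high; bars are SE and colours mark the calls at adjusted p under 0.05. Hist1h2al, at 7.05, and Hist1h2br, at 2.35, stand above the rest, while Hist1h2bn, at -1.24, and Hist1h4m, at -1.02, are the lowest.

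Among the H1 genes, none of 6 passed the test and the median log2 fold change was -0.05. Hist1h1b, Hist1h1c and Hist1h1a, the 3 H1 genes with the highest level per length, had log2 fold changes of 0.02 ± 0.17, -0.17 ± 0.18 and -0.01 ± 0.12 (SE). Hist1h1t had 9, 19 and 11 counts in GalTKO libraries and 38, 15 and 18 in wildtype libraries, which overlap (-0.76 ± 0.47, edgeR adjusted p = 0.465). H1 genes summed to 799 ± 162 CPM in GalTKO ovaries and 831 ± 95.2 CPM in wildtype ovaries (SD, n = 3 each), a difference within the spread of the libraries.

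Of the 18 H2A genes tested, 1 was called. Hist1h2al, annotated as a processed pseudogene and so not as a source of protein, had 545, 707 and 545 counts in GalTKO libraries, against 0, 7 and 7 in wildtype libraries. Every GalTKO library was far above every wildtype library, where 1 had no count and the others were close to none. In CPM the gene stood at 26.6 ± 4.93 in GalTKO ovaries and 0.200 ± 0.173 in wildtype ovaries (SD, n = 3 each), a log2 fold change of 7.05 ± 0.49 (edgeR adjusted p = 0.000582). Leaving out the wildtype replicate 1 library gave 6.45, a fold more than 1.5 times smaller, and the gene was called in each of the 6 fits that left out a library. It lies at chr13:51202727-51203065 on the minus strand, outside the histone clusters of the chromosome, and none of the 4 tested genes within 250 kb was called. Of the 290 stretches of 50 bases in its annotated transcript, 67.6% also occur in transcripts of other genes, most often Hist2h2aa2. Hist2h2aa2 itself had 124, 68 and 69 counts in GalTKO libraries and 89, 67 and 74 in wildtype libraries, which overlap. Of its own 50-base stretches 100% occur in other genes, so these counts may not hold all reads from it.

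The remaining tested H2A genes did not pass the test, and the class median was -0.10. Hist1h2ak, the most abundant H2A gene per length, had 100.5, 138 and 147 CPM in GalTKO libraries, against 68.2, 122 and 126 CPM in wildtype libraries. The wildtype replicate 1 library is the lowest of the 6 for this gene, and the other wildtype libraries lie within the GalTKO range (0.28 ± 0.26, edgeR adjusted p = 0.636). Hist1h2ab and Hist1h2af, next in level per length, had 49.8 ± 10.6 and 37.0 ± 6.73 CPM in GalTKO ovaries and 65.0 ± 6.33 and 40.5 ± 5.64 CPM in wildtype ovaries (SD, n = 3 each). Their log2 fold changes were -0.38 ± 0.16 and -0.13 ± 0.16, with overlapping libraries (edgeR adjusted p = 0.264 and 0.717). Hist1h2aj, an unprocessed pseudogene in the same cluster, failed the filter with 4, 8 and 53 counts in GalTKO libraries and 483, 5 and 6 in wildtype libraries. The wildtype replicate 1 library thus held nearly all wildtype counts of Hist1h2aj while it was the lowest for Hist1h2ak and for Hist1h2an, a further H2A gene named after its values were seen, with 847, 1071 and 588 counts in GalTKO libraries and 433, 893 and 986 in wildtype libraries. Of the 50-base stretches of Hist1h2aj, 93.1% also occur in other genes, most often Hist1h2ai. Hist1h2ai had 183, 281 and 172 counts in GalTKO libraries and 277, 250 and 183 in wildtype libraries, which overlap. Of its own 50-base stretches 90.1% occur in other genes, so these counts may not hold all reads from it.

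**Figure D2:**
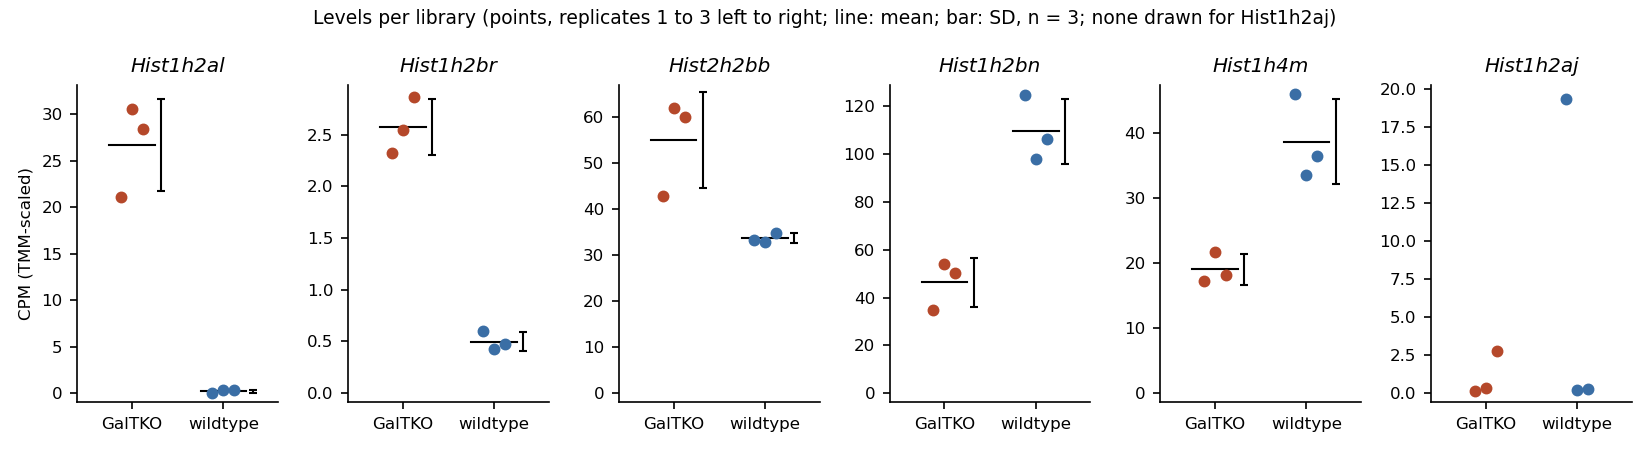
Levels in CPM (vertical axis, scaled by TMM) of the 5 called histone genes and of Hist1h2aj in each library, with the mean as a line and the SD as a bar (n = 3), neither drawn for Hist1h2aj. GalTKO libraries lie above wildtype libraries for Hist1h2al, Hist1h2br and Hist2h2bb and below them for Hist1h2bn and Hist1h4m; Hist1h2aj is high in the wildtype replicate 1 library, at 19.3 CPM.

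H2B was the class with the most called genes, 2 higher (against 1.13% of all tested genes) and 1 lower (against 1.43%) of 18 tested, and 14 of the 18 had negative log2 fold changes (median -0.28). GalTKO libraries lay below wildtype libraries for 7 of the 18 (38.9%, against 12.0% of all tested genes) and above them for 2, against 11.8%. Hist1h2bn, the most abundant H2B gene per length, had 898, 1258 and 966 counts in GalTKO libraries, against 3119, 2314 and 2451 in wildtype libraries. The groups were far apart, and the level of 46.4 ± 10.3 CPM in GalTKO ovaries compares with 110 ± 13.7 CPM in wildtype ovaries (SD, n = 3 each; log2 fold change -1.24 ± 0.17, edgeR adjusted p = 0.013). It was called lower in each fit that left out a library (adjusted p 0.00895 to 0.0496).

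Hist2h2bb, an H2B gene of the chromosome 3 cluster, had 1108, 1435 and 1151 counts in GalTKO libraries, against 829, 778 and 804 in wildtype libraries. The groups did not overlap, at 54.9 ± 10.4 CPM in GalTKO ovaries and 33.6 ± 1.05 CPM in wildtype ovaries (SD, n = 3 each; 0.71 ± 0.14, edgeR adjusted p = 0.0431). The call was lost in 5 of the 6 fits that left out a library, all but the fit without GalTKO replicate 1, with edgeR adjusted p up to 0.163 and log2 fold changes of 0.61 to 0.86. None of its 50-base stretches occurs in an annotated transcript of another locus. The lincRNA Gm42743 overlaps it on the same strand and the antisense gene Gm20628 on the opposite strand, so reads there may be divided between them. Gm42743 had 340, 475 and 337 counts in GalTKO libraries and 295, 265 and 255 in wildtype libraries (0.59 ± 0.17, edgeR adjusted p = 0.128), and Gm20628 had 36, 60 and 63 counts in GalTKO libraries and 45, 29 and 33 in wildtype libraries (0.69 ± 0.35, adjusted p = 0.373).

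Hist1h2br, an H2B gene of the same chromosome 13 cluster as Hist1h2bn, had 60, 59 and 55 counts in GalTKO libraries and 15, 10 and 11 in wildtype libraries. Its level was low, 2.58 ± 0.27 CPM in GalTKO ovaries and 0.4997 ± 0.0907 CPM in wildtype ovaries (SD, n = 3 each), and the log2 fold change was 2.35 ± 0.29 (edgeR adjusted p = 0.0052). It was called higher in each fit that left out a library.

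The other 15 tested H2B genes did not pass. Hist2h2be, an H2B gene of the chromosome 3 cluster, had 169, 221 and 254 counts in GalTKO libraries and 362, 376 and 471 in wildtype libraries, which do not overlap (-0.80 ± 0.26, edgeR adjusted p = 0.167). Hist1h2bc had 59.8, 64.3 and 72.4 CPM in GalTKO libraries and 93.0, 87.2 and 84.8 CPM in wildtype libraries (-0.43 ± 0.09, edgeR adjusted p = 0.0561). This gene was named after its values were seen, as were Hist1h2bj, Hist1h2bk, Hist1h2bm, Hist1h3d, Hist2h2ac and the copies and partners of called genes. Hist1h2bq, Hist1h2bk, Hist1h2bj, Hist1h2bm and Hist1h2bg had log2 fold changes of -0.59, -0.57, -0.55, -0.52 and -0.42, with the groups overlapping for Hist1h2bm. Summed over the 19 H2B genes, GalTKO libraries held 405, 570.5 and 524 CPM and wildtype libraries 700.4, 581 and 638 CPM. The sums do not overlap, though GalTKO replicate 2 and wildtype replicate 2 lie close together, and the mean was 500 ± 85.4 CPM in GalTKO ovaries and 640 ± 59.6 CPM in wildtype ovaries (SD, n = 3 each), a ratio of 0.782. Without Hist1h2bn and Hist2h2bb, GalTKO libraries held 328, 454 and 414 CPM and wildtype libraries 543, 450.4 and 497 CPM. These sums overlap only through GalTKO replicate 2 and wildtype replicate 2, and the ratio of the means was 0.803.

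Of the 11 H3 genes tested none was called, and 9 had negative log2 fold changes (median -0.12). Hist1h3a, an H3 gene of the larger chromosome 13 cluster, had 631, 748 and 513 counts in GalTKO libraries and 1438, 922 and 1045 in wildtype libraries, groups that do not overlap. Its log2 fold change of -0.77 ± 0.16 missed the threshold at an edgeR adjusted p of 0.0532. Hist1h3d also lay lower in every GalTKO library, with 55.2, 68.3 and 60.9 CPM, against 95, 72.9 and 84.3 CPM in wildtype libraries (-0.45 ± 0.12, edgeR adjusted p = 0.109). The 3 most abundant H3 genes per length, Hist2h3b, Hist1h3i and Hist1h3f, had log2 fold changes of 0.01 ± 0.13, -0.12 ± 0.14 and -0.11 ± 0.15 (SE). H3 genes summed to 773 ± 115 CPM in GalTKO ovaries and 857 ± 132 CPM in wildtype ovaries (SD, n = 3 each), which overlap.

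Of the 13 H4 genes, all tested, 1 was called. Hist1h4m had 445, 503 and 350 counts in GalTKO libraries, against 1150, 792 and 840 in wildtype libraries. No GalTKO library reached the lowest wildtype library, and the level was 19.05 ± 2.35 CPM in GalTKO ovaries and 38.6 ± 6.54 CPM in wildtype ovaries (SD, n = 3 each; log2 fold change -1.02 ± 0.15, edgeR adjusted p = 0.0121). It was called lower in each fit that left out a library. All the H4 genes encode the same core histone, and each of the others had a log2 fold change of smaller size, at high and low levels alike. Hist1h4h had 169.6, 201 and 189 CPM in GalTKO libraries and 242, 189 and 196 CPM in wildtype libraries, which overlap (-0.17 ± 0.12, edgeR adjusted p = 0.523). Hist1h4k and Hist1h4d, next in level per length, had log2 fold changes of 0.01 ± 0.12 and -0.06 ± 0.10 (SE). Groups did not overlap for Hist1h4f, lower in GalTKO libraries, and Hist1h4a, higher in them, both named after their values were seen. Neither passed (-0.46 ± 0.16 and 0.26 ± 0.08, edgeR adjusted p = 0.2035 and 0.1585). The largest positive values in the class, 0.39 ± 0.14 for Hist1h4i and 0.34 ± 0.29 for Hist4h4, the only gene of the selected set on chromosome 6, did not pass (edgeR adjusted p = 0.212 and 0.621). H4 genes summed to 1224 ± 121 CPM in GalTKO ovaries and 1290.0 ± 137 CPM in wildtype ovaries (SD, n = 3 each), which overlap.

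**Figure D3:**
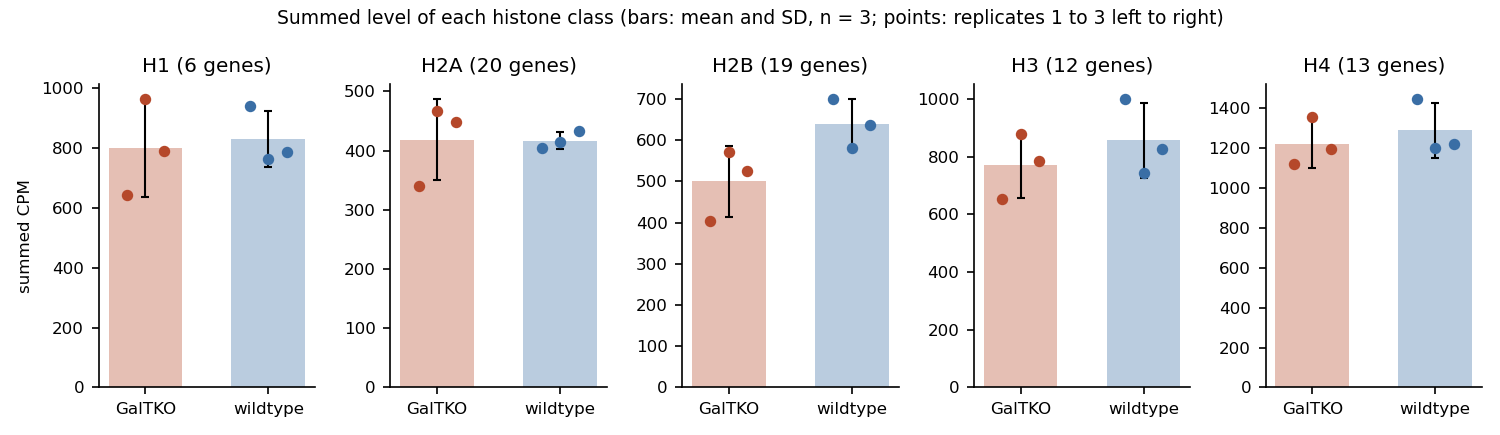
Summed CPM of each histone class (vertical axis), with bars for the mean, error bars for the SD (n = 3) and points for the libraries. Of the 5 classes, only the H2B sums do not overlap between GalTKO, at 405 to 570.5 CPM, and wildtype, at 581 to 700.4 CPM. The H2A sums include the pseudogene Hist1h2al.

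Several of the called genes belong to near-identical copies, so each was also set against a copy or neighbour within the same library. These pairs were chosen after the values were seen, and the ratios are given as a description. Hist1h4m and Hist1h4n lie in an inverted arrangement of the chromosome 13 cluster, and 89.8% of the 50-base stretches of Hist1h4m also occur in Hist1h4n. The ratio of Hist1h4m to Hist1h4n counts was 0.435, 0.456 and 0.457 in GalTKO libraries, against 1.04, 1.11 and 1.11 in wildtype libraries. The ratios were tight within each genotype and far apart between them. Hist1h4n itself had 1024, 1102 and 766 counts in GalTKO libraries and 1100, 715 and 757 in wildtype libraries (0.25 ± 0.15, edgeR adjusted p = 0.461). The 2 genes together held 61.4 ± 6.82 CPM in GalTKO ovaries and 74.3 ± 13.8 CPM in wildtype ovaries (SD, n = 3 each), which overlap.

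Hist1h2br and Hist1h2bq flank those H4 genes on the outside of the same inverted arrangement, and 88.7% of the 50-base stretches of Hist1h2br occur in Hist1h2bq. The ratio of Hist1h2br to Hist1h2bq counts was 2.5, 2.95 and 3.24 in GalTKO libraries, against 0.349, 0.345 and 0.44 in wildtype libraries. The order of the copies was thus opposite in the 2 genotypes, with Hist1h2bq itself at 24, 20 and 17 counts in GalTKO libraries and 43, 29 and 25 in wildtype libraries. Summed, the pair held 3.25, 3.41 and 3.75 CPM in GalTKO libraries and 2.32, 1.65 and 1.56 CPM in wildtype libraries, with all GalTKO libraries above. Between these H2B and H4 genes lie the H2A copies Hist1h2ap and Hist1h2ao, whose ratio was 2.64, 0.233 and 0.632 in GalTKO libraries and 0.45, 0.391 and 0.424 in wildtype libraries, which overlap.

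**Figure D4:**
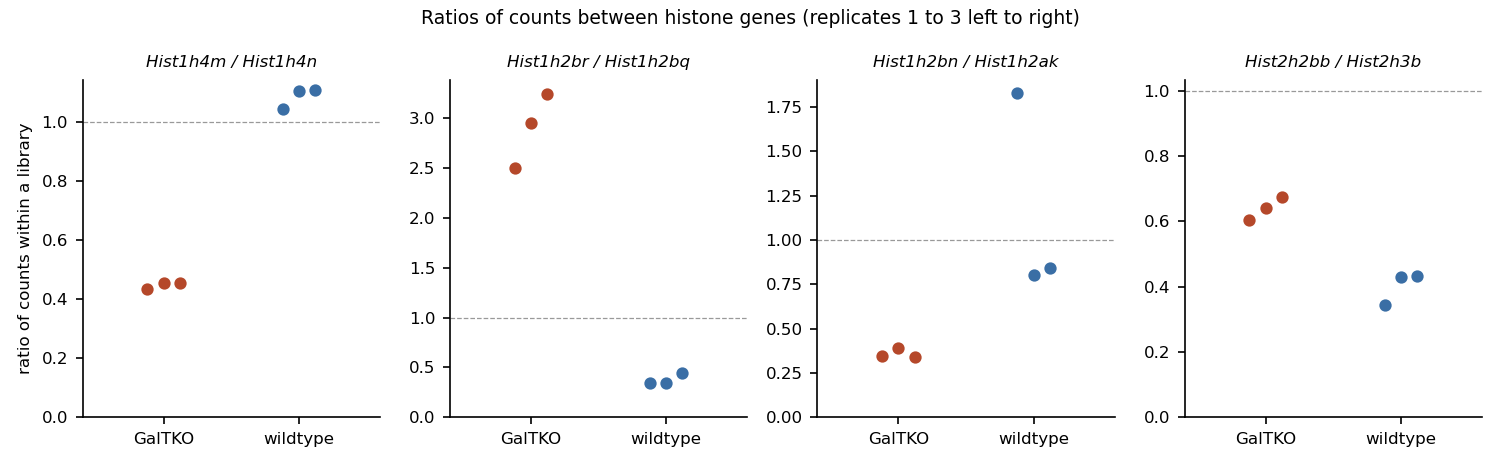
Ratio of the counts of 2 histone genes within each library (vertical axis, the dashed line marks equal counts) for 4 pairs chosen after the values were seen. The Hist1h4m to Hist1h4n ratio is 0.435 to 0.457 in GalTKO libraries and 1.04 to 1.11 in wildtype libraries, and the Hist1h2br to Hist1h2bq ratio is 2.5 to 3.24 in GalTKO libraries and 0.345 to 0.44 in wildtype libraries.

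The promoters of Hist1h4m and Hist1h4n are shown because the ratio of these copies separates the libraries by genotype. In the reference sequence their start regions are almost alike, and the sequence carried by these animals was not examined. The windows run from 250 bases before to 50 bases after the RefSeq gene start (GRCm38.p6, chr13:21811496-21811795, plus strand, and chr13:21832148-21832447, minus strand), written 5' to 3' along the gene. They align with 298 identical letters in 301 columns (99.0%), and capitals mark TATAAA.
Hist1h4m: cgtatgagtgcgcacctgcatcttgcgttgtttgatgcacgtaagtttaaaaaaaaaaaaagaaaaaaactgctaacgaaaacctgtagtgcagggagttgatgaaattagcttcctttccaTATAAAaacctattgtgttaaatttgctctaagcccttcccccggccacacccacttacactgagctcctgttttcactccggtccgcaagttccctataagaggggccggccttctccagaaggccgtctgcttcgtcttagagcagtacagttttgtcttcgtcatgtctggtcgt
Hist1h4n: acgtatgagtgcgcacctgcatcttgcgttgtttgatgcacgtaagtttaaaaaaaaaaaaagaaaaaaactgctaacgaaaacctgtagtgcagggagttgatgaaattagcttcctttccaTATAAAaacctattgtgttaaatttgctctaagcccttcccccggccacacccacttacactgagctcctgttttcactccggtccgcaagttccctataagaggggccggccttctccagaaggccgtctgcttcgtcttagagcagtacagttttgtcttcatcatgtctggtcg
The windows of Hist1h2bq and Hist1h2br are identical over all 300 letters.

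H2A and H2B genes of these clusters lie largely in head-to-head pairs that share a promoter region, and the pairs were read together. There were 14 pairs of histone genes on opposite strands with 172 to 305 bases between their annotated starts, and in 12 of them both genes were tested, each time an H2A gene with an H2B gene. The log2 fold change of the H2B gene lay below that of its H2A partner in 11 of the 12 pairs, a description of fitted values that was not tested; the exception was Hist1h2ap with Hist1h2br. The gap was widest among those 11 for Hist1h2ak and Hist1h2bn, with 0.28 and -1.24. In other pairs the gap was small beside the SE. Hist1h2bq had -0.59 ± 0.30 against -0.57 ± 0.43 for Hist1h2ao, and Hist1h2bc had -0.43 ± 0.09 against -0.39 ± 0.14 for Hist1h2ac. Several H2B genes also share 50-base stretches with each other, so the pairs are not independent. The ratio of Hist1h2bn to Hist1h2ak counts was 0.346, 0.393 and 0.342 in GalTKO libraries, against 1.83, 0.805 and 0.841 in wildtype libraries, where replicate 1 stands apart with its low Hist1h2ak. Against Hist1h2bl, an H2B gene of the same cluster, Hist1h2bn had a ratio of 0.952, 1.08 and 1.21 in GalTKO libraries and 2.22, 2.44 and 2.20 in wildtype libraries. Of the 50-base stretches of Hist1h2bn, 86.4% occur in other genes, most often Hist1h2bk.

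The region between Hist1h2ak and Hist1h2bn is shown because it serves as the start region of both genes, and with it that of Hist2h2bb, the called gene without copies. The Hist1h2bn window lies at chr13:21753826-21754125 (plus strand) and the Hist2h2bb window at chr3:96269450-96269749 (plus strand), both RefSeq GRCm38.p6. Capitals mark CCAAT, which nuclear factor Y binds, TATAAA, and the octamer ATTTGCAT, which OCT1 binds, each searched on both strands.
Hist1h2bn: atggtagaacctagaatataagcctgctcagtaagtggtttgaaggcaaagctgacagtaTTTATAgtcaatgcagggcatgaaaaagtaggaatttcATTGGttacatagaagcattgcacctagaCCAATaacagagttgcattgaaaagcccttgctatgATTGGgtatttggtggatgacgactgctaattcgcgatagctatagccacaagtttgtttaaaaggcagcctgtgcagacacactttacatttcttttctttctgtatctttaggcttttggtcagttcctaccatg
Hist2h2bb: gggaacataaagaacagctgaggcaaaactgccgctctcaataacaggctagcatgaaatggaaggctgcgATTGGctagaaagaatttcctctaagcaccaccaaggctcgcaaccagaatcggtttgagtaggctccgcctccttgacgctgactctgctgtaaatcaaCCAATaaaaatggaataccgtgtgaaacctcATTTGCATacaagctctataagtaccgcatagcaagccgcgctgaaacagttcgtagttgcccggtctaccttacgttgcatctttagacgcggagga
CCAAT occurred in all 17 windows of H2B genes, all 18 of H2A, all 10 of H3 and all 6 of H1, in 3 of 12 of H4 (25%), and in 37.4% of all 32851 RefSeq promoter windows. ATTTGCAT occurred in 7 of 17 H2B windows (41.2%) and 7 of 18 H2A windows (38.9%), in none of the H1, H3 and H4 windows, and in 1.74% of all windows. TATAAA occurred in 47.1% of H2B and 66.7% of H4 windows and in 13.6% of all windows. The H2A and H2B windows of a head-to-head pair can cover the same bases, so 1 site can count in both classes, as for Hist1h2ah and Hist1h2bk. The H2A and H2B shares are therefore not independent. A match describes letters in these windows only.

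The calls were then read by position. Histone genes under 1 Mb apart were taken as 1 cluster. Of all tested genes, 1.13% were called higher, 1.43% lower and 2.55% either way, and 46.6% had a negative log2 fold change. The larger chromosome 13 cluster (chr13:23531050-23934851) holds 31 genes, all tested. None of them was called, a count near that share, and 25 had negative log2 fold changes (median -0.13). The other chromosome 13 cluster (chr13:21715763-22043676) holds 24, of which 23 were tested, with Hist1h2br called higher and Hist1h2bn and Hist1h4m called lower (median -0.16). The chromosome 3 cluster (chr3:96219865-96270132) holds 10, of which 8 were tested, with Hist2h2bb called higher (median -0.21). The 3 genes on chromosome 11 and Hist4h4 on chromosome 6 held no call. Whether the clusters differ in their share of calls was not tested. Among the genes that are not histones within 250 kb of these clusters, 0 of 7 and 0 of 6 tested were called at the chromosome 13 clusters and 1 of 15 at the chromosome 3 cluster. That gene, Gm20634, a processed transcript, had 31, 13 and 20 counts in GalTKO libraries and 71, 60 and 77 in wildtype libraries (-1.63 ± 0.32, edgeR adjusted p = 0.0425). It overlaps Hist2h2aa1 and Hist2h3c1 on the same strand, and 63.5% of the 50-base stretches of Hist2h3c2 and 79.7% of those of Hist2h3b also occur in it, so its counts cannot be told apart from histone reads here.

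**Figure D5:**
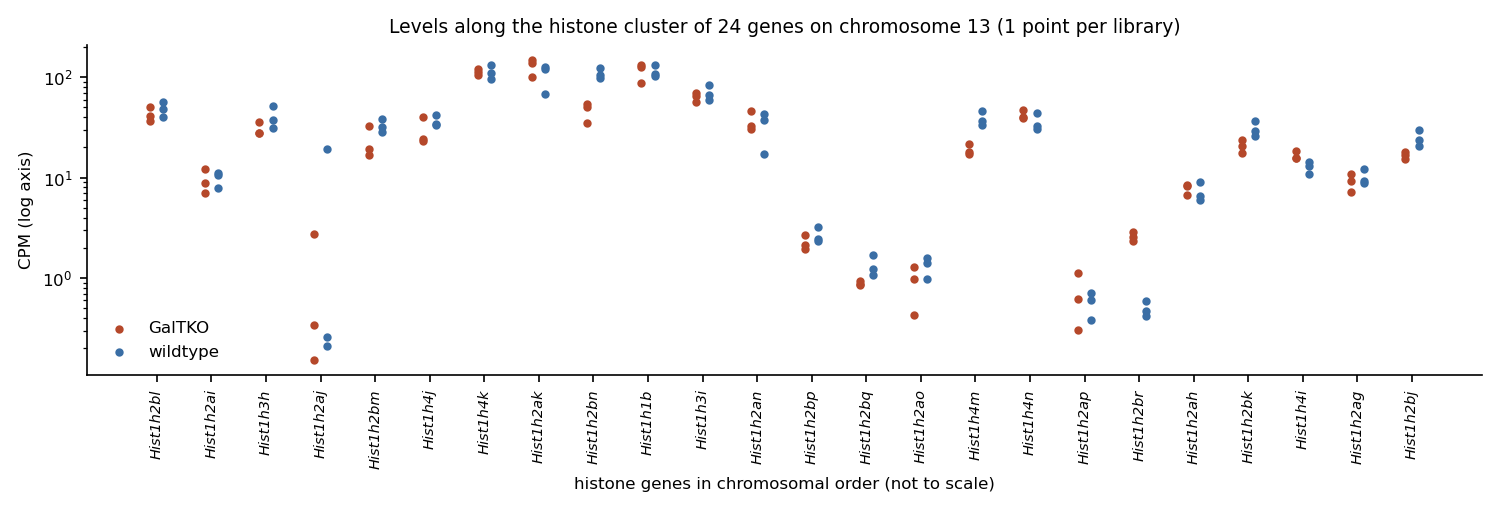
CPM on a log axis (vertical) of the 24 histone genes of the chromosome 13 cluster that holds 3 called genes, in chromosomal order, with 1 point per library. Hist1h2bn and Hist1h4m lie lower in GalTKO libraries beside neighbours whose points overlap between genotypes, and Hist1h2br lies higher.

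The share of sequence in common with other genes was set beside the calls, since no source used here states how reads with several possible origins were counted. Of the 66 genes tested, 21 share under 25% of their 50-base stretches with other genes, with 1 called higher (Hist2h2bb); 28 share 25% to 75%, with 1 called higher (Hist1h2al); and 17 share 75% or more, with 1 called higher (Hist1h2br) and 2 lower (Hist1h2bn and Hist1h4m). Of all tested genes 1.13% were called higher and 1.43% lower, and counts this small do not set the bins apart. The median log2 fold changes of the 3 bins were -0.17, -0.15 and -0.12. With stretches of 100 bases the bins held 27, 26 and 13 genes: 2 were called higher under 25% (Hist2h2bb and Hist1h2al), 1 lower from 25% to 75% (Hist1h2bn), and 1 higher (Hist1h2br) and 1 lower (Hist1h4m) at 75% or more, where the median was 0.01.

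Genes that act with the replication-dependent histones were read as lists. Of the 14 tested genes of histone RNA processing and transcription, none was called (median -0.02). Slbp, whose protein binds the stem-loop, had 47.5, 40.5 and 45.1 CPM in GalTKO libraries and 42.3, 39.5 and 37.2 CPM in wildtype libraries, which overlap (0.16 ± 0.10, edgeR adjusted p = 0.458). Upf1, which acts in histone mRNA decay, had the smallest p of the list, with 128, 106 and 115 CPM in GalTKO libraries and 145, 141 and 143 CPM in wildtype libraries (-0.30 ± 0.09, edgeR adjusted p = 0.143). None of 17 histone chaperones and none of 13 replication-independent histone genes was called. Of 24 S phase genes none was called, and 2 had negative log2 fold changes (median 0.16); of 17 genes of G2 and mitosis none was called (median 0.11). Cdc20, which activates the ubiquitin ligase that ends mitosis, had the smallest p of the G2 and mitosis list (0.40 ± 0.10, edgeR adjusted p = 0.0981). Among 6 tested genes of other RNAs without a poly(A) tail, Rprl3, annotated as a ribozyme RNA, was called higher, with 325, 290 and 353 counts in GalTKO libraries and 0, 3 and 0 in wildtype libraries (edgeR adjusted p = 0.00025). The median of these 6 was 0.70, and 1 was negative. Rny3 and Rny1 lay higher in every GalTKO library but did not pass (1.18 ± 0.25 and 1.59 ± 0.41, edgeR adjusted p = 0.052 and 0.101). Libraries overlapped for Rmrp, Rpph1 and Rn7sk.

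Markers of the cell types of the ovary were set beside the histone results, and their part in them was not tested. Oocyte and granulosa markers were present in all libraries: 17 oocyte markers summed to 404 to 464 CPM in GalTKO libraries and 346 to 518 CPM in wildtype libraries, and 12 granulosa markers to 8710.0 to 10410.0 CPM in GalTKO libraries and 8529 to 10120.0 CPM in wildtype libraries. Of the granulosa markers Amh was called higher and Nr5a2 lower. All 9 macrophage markers had negative log2 fold changes and 5 were called lower, with sums of 266 to 289 CPM in GalTKO libraries and 394 to 481 CPM in wildtype libraries. Of 5 endothelial markers, 2 were called lower (363 to 404 CPM in GalTKO libraries, 446 to 576 CPM in wildtype libraries), and of 6 luteal markers Star was called lower (2319 to 5371 CPM in GalTKO libraries, 5192 to 6390.0 CPM in wildtype libraries). Lymphocyte markers summed to 10.6 to 15.1 CPM in GalTKO libraries and 18.8 to 20.4 CPM in wildtype libraries. No marker was called among the lymphocyte, erythroid, theca and stromal lists, and Krt8 was called higher among the surface epithelium markers.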

How the data were processed

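Total RNA from mouse ovaries (3 GalTKO and 3 wildtype samples) was depleted of ribosomal RNA with Ribo-Zero Gold and made into strand-specific libraries, per the labels' protocols. The deposited table holds raw, unnormalized counts for each Ensembl gene. The submitters' processing notes name cutadapt 1.16, STAR 2.7.6a, featureCounts 1.6.3, DESeq2 1.30.1 and GRCm38; their roles, the strand option and the treatment of reads with several possible origins are not given in these sources. That treatment decides how counts divide between histone copies, so differences between near-identical genes are uncertain.

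Symbols came from GENCODE M21 (55227 of 55487 identifiers matched). Counts were tested with edgeR 4.0.16 in R 4.3.3: filterByExpr (minimum count 10, minimum total 15), TMM, a robust quasi-likelihood fit with genotype as the only term, two-sided p-values and Benjamini-Hochberg adjustment over 16957 genes, called at 0.05. The SE is the size of the log2 fold change divided by the square root of F. Floors and intervals would cover counting error only; 3 counts correspond to 0.116 to 0.156 CPM per library. All pairs of libraries within a genotype differed by more than sampling noise (chi-square per degree of freedom at least 12).

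The histone genes and the 16 context lists (176 entries) were chosen with earlier results of these data known. Genes named were Galt, called histone genes, per class the 3 with the highest CPM per kb, the 5 largest changes each way, up to 3 per context list and called neighbours, with the exceptions the text states. Some genes are named to complete a count. Shared sequence was counted as stretches of 50 bases in GENCODE transcripts, either strand, leaving out genes at the same locus. Promoter windows came from RefSeq (62 of 70 genes matched, 63 windows). On simulated counts for 16627 genes in this comparison, the test found 77% of 100 planted 2-fold changes and 92% of 100 planted 4-fold changes, with 21 false among 190 calls. Changes were planted only in genes with a mean above 1 CPM, and counts were drawn with the dispersions fitted to these data. The rates therefore do not cover genes at lower levels or reads shared between copies. Alternatives were upper-quartile and median-of-ratios scaling, a Wald test in DESeq2 1.42.0, voom with quality weights in limma 3.58.1, no low-count filter, 1 CPM in 3 libraries, a replicate block, each library left out and an adjusted p of 0.1. Figures were drawn in Python 3.11.15 with matplotlib 3.10.9.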

Additional observations from a re-analysis of the deposited data

How the results depend on the processing

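Hist1h2al, Hist1h2br and Hist1h4m were called in the same direction in each of the 6 fits that left out a library and in the other alternatives run. Hist1h2bn lost its call only with the replicate block (edgeR adjusted p = 0.0515) and Hist2h2bb with the block (0.0607) and in 5 of the 6 fits without a library. Histone genes called lower numbered 9 with DESeq2, 9 with no low-count filter, 4 at an adjusted p under 0.1 and 1 with the replicate block, against 2, and 2 to 7 when a library was left out, with 7 in the fit without GalTKO replicate 2; those called higher numbered 2 to 3. Replicate numbers did not pair the samples: correlations of same-numbered deviations were 0.093, -0.04 and 0.078, not every sample correlated best with its own number, and with the block 3 histone genes were called, and 125 of all tested genes were higher and 196 lower, against 191 and 242 without it. The median over the tested histone genes ran from -0.235 to -0.038 without a library, and the log2 ratio of the H2B sums from -0.46 to -0.23, of H1 from -0.21 to 0.08, of H2A from -0.08 to 0.14, of H3 from -0.25 to -0.02 and of H4 from -0.16 to 0.01. Galt ran from -7.51 to -6.35. Context list genes called numbered 12, against 25 with DESeq2, 23 with no low-count filter, 19 at an adjusted p under 0.1 and 3 to 20 without a library. The signs that turned belong to genes that were not called. With limma voom, Hist1h1b stood at -0.073, Hist2h3b at -0.054 and Hist1h4k at -0.048, and with upper-quartile scaling Hist1h1a at 0.014. With a library left out, values ran from -0.088 to 0.177 for Hist1h1b, -0.099 to 0.106 for Hist1h1a, -0.083 to 0.13 for Hist2h3b, -0.232 to 0.033 for Hist1h3i, -0.21 to 0.032 for Hist1h3f, -0.092 to 0.139 for Hist1h4k, -0.139 to 0.003 for Hist1h4d and -0.053 to 0.163 for Msln. The cause of these differences was not tested. Copies that share most of their sequence limit what depth alone can resolve.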
